A study of Mus musculus with 6 samples.

Results

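Collagen chain genes were taken as every gene of the deposited table whose symbol is Col, a number, the letter a and a number. The rule found 42 of the 18872 genes in the table, and 36 of them reached a mean of 10 normalized counts over the 6 libraries and were among the 13986 genes tested. A normalized count is the number of reads of a gene after division by its library's size factor. By class, 11 of the 42 were fibrillar chains, 6 were basement membrane chains, 8 were FACIT chains (fibril-associated collagens with interrupted triple helices) and 17 belonged to other classes. The 6 chains below the minimum were Col2a1, Col4a3, Col4a4, Col19a1, Col8a2 and Col13a1.

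RNA was sequenced from mouse embryonic fibroblasts (MEFs), cells grown out of minced trunks of E14.5 embryos, at 75% confluency in medium with 10% fetal calf serum. The study compared SARAF-KO with SARAF-WT cells to see what loss of SARAF, an endoplasmic reticulum protein that inactivates store-operated Ca2+ entry, does to gene expression. Both groups had 3 libraries, all on a B6 background, and RNA was required to have an integrity number of at least 8.5. The labels give the genotypes only as SARAF KO and wild type; by the study's methods, SARAF-KO mice carried floxed Saraf alleles deleted by PGK-Cre, a ubiquitous Cre, and SARAF-WT mice were floxed littermates without Cre. No label ties a library to an embryo, and the p-values here therefore measure the spread between libraries, which may be technical. In bulk RNA, fewer cells of a type and less RNA per cell cannot be told apart.

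A collagen is a trimer of chains wound into a triple helix, and every chain repeats glycine, X, Y over long stretches because only glycine fits in the core. Fibrillar collagens form the fibrils of skin, bone and tendon, basement membrane (type IV) collagens form sheet-like networks under epithelia, vessels and muscle, and FACIT collagens sit on the surface of fibrils. Fibroblasts are the main producers of type I and type III collagen, and they release much of it into the culture dish.

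Saraf itself, the gene deleted in the knockout (chromosome 8, 34154575 to 34170821, GRCm38), went against the labels. It had 4631, 4476 and 4384 normalized counts in the SARAF-KO-labelled libraries and 3268, 3409 and 3306 in the SARAF-WT-labelled libraries, and the groups did not overlap. The gene count covers all exons, of which the floxed allele loses one, and reads by exon were not analysed here. The log2 change of Saraf was 0.43 (SE 0.03, limma adjusted p = 4.2e-12). Every direction below is therefore given by label only, as SARAF-KO-labelled minus SARAF-WT-labelled, and cannot be read as the direction of a knockout. The files give 3 libraries per label with 32799080 to 37979662 recovered reads under the SARAF-KO label and 24595137 to 32228588 under the SARAF-WT label. Every SARAF-KO-labelled library was deeper than every SARAF-WT-labelled one, so depth and label cannot be told apart.

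The repeat of the triple helix can be read in the genes themselves. Fibrillar chain genes are built from many short exons, most often of 54 bases, that each start with a glycine codon and hold 6 Gly-X-Y triplets. One such exon is shown for 2 of the most abundant fibrillar chains and for Col5a3, the fibrillar chain that was higher in the SARAF-KO-labelled libraries, with glycine codons in capitals (GENCODE M21, GRCm38). Coding exon 24 of Col1a2 lies at chr6:4522442-4522495 on the plus strand, coding exon 21 of Col3a1 at chr1:45332965-45333018 on the plus strand, and coding exon 29 of Col5a3 at chr9:20793711-20793764 on the minus strand.
Col1a2: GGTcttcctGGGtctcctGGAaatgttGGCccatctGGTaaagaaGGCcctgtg
Col3a1: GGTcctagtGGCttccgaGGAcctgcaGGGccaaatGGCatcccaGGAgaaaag
Col5a3: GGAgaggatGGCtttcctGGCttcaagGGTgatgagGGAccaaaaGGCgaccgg
The exons shown were picked among those of 54 bases that start with a glycine codon inside an unbroken stretch of Gly-X-Y triplets. The 6 glycine codons therefore stand at the same places in all 3 by choice.

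The classes differ in how far this repeat runs. In the 11 fibrillar chains the longest unbroken run of Gly-X-Y triplets was 216 to 344 triplets (median 338), and 48.6% of their 627 inner coding exons were exactly 54 bases long. Col24a1 and Col27a1 had the shortest runs of the class, at 216 and 217 triplets, and the other 9 had at least 337. Basement membrane chains had runs of 39 to 66 triplets, FACIT chains of 32 to 113 and the other chains of 28 to 87. Only 4.23% of the inner exons of basement membrane chains, 25.1% of those of FACIT chains and 7.40% of those of the other chains had 54 bases, against 0.735% of 158743 inner coding exons over all genes. Col22a1, a FACIT chain, had 28 exons of this length, within the range of the fibrillar chains.

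**Figure D1:**
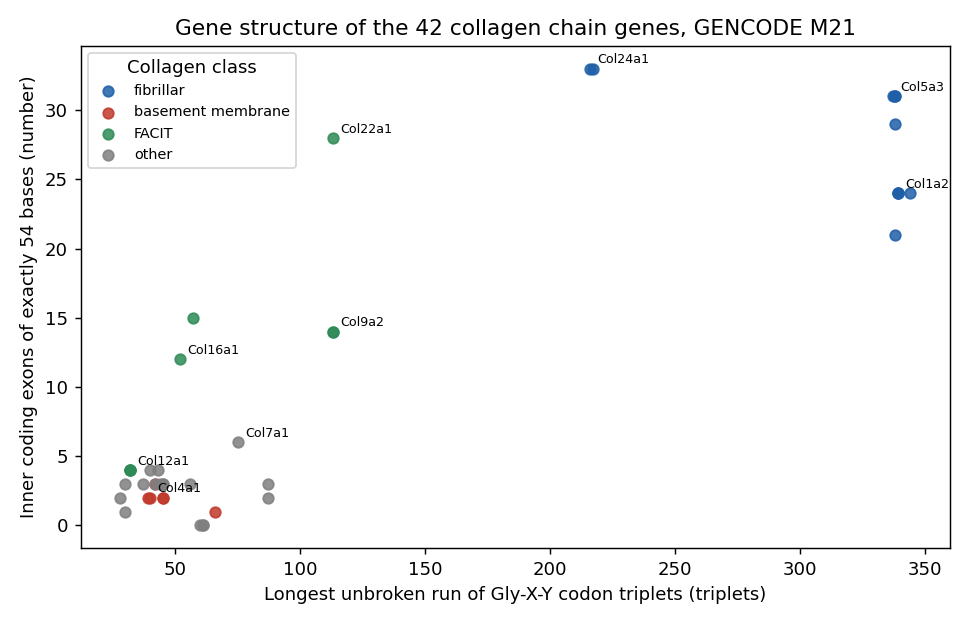
Gene structure of the 42 collagen chain genes, with the longest unbroken run of Gly-X-Y codon triplets on the x axis (triplets) and the number of inner coding exons of exactly 54 bases on the y axis, each point 1 gene colored by class. The 11 fibrillar chains stand apart at runs of 216 to 344 triplets and 21 to 33 such exons.

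Most collagen chains differed between the labels, and they did not move one way. Of the 36 tested chains, 29 (80.6%) passed an adjusted p under 0.05 in limma, where 56.2% of all genes tested did. Chains that were higher in the SARAF-KO-labelled libraries numbered 11, beside 28.2% of all genes, and chains that were lower numbered 18, beside 28.0% of all genes. The groups did not overlap for 32 of the 36 chains (88.9%), beside 61.4% of all genes. The chains are also abundant: of the 17 with a mean of at least 1000 normalized counts 16 passed, beside 65.8% of genes at that level. The median log2 change was -0.11 over the 36 chains and -0.0014 over all genes tested.

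**Figure D2:**
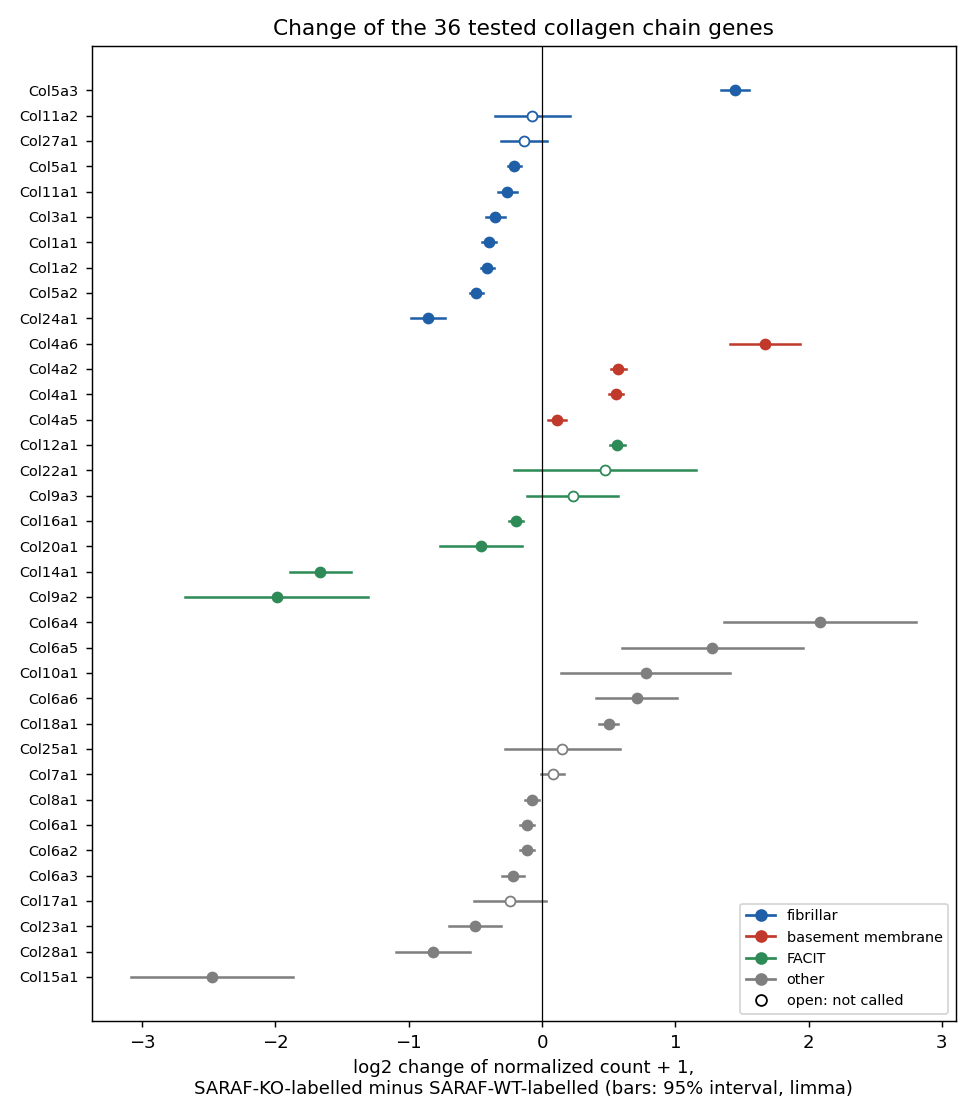
The log2 change of the normalized count plus 1 (x axis) for each of the 36 tested collagen chains (y axis), with its 95% interval from limma, ordered within class. Filled points passed an adjusted p under 0.05 and open points did not. Of the 10 tested fibrillar chains, 7 lie left of 0 and are filled, and all 4 tested basement membrane chains lie right of 0. Of all genes tested, 28.0% passed and were lower and 28.2% passed and were higher.

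The chains of the common fibrils were lower in the SARAF-KO-labelled libraries. Of the 10 tested fibrillar chains 7 were lower, 1 was higher and 2 did not pass, and the median log2 change of the class was -0.31. Of all genes tested, 28.0% were lower and 28.2% higher. Lower were both chains of type I collagen, the main protein of skin, tendon and bone, the single chain of type III collagen, which forms fibrils with type I in stretchable tissues, and Col5a1, Col5a2 and Col11a1, minor chains that sit inside fibrils and set their diameter. The 1 higher chain was Col5a3, a type V chain of restricted expression.

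Col1a1 had 61085, 60330 and 59811 normalized counts in the SARAF-KO-labelled libraries and 83198, 77145 and 78670 in the SARAF-WT-labelled ones. Col1a2, its partner in the trimer, had 60817, 59944 and 59497 beside 80240, 79919 and 79569. In both genes every SARAF-KO-labelled library lay below every SARAF-WT-labelled one, and the log2 changes were -0.40 (SE 0.03) and -0.41 (SE 0.02), with limma adjusted p values of 3.9e-12 and 1.4e-13. Per kilobase of the main transcript these were the most abundant collagen chains in both groups, at 10187 beside 13435 normalized counts per kb for Col1a1 and 11235 beside 14942 for Col1a2. The order of the pair depends on the length used: per kb of all annotated exons Col1a1 led.

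Col3a1 had 31743, 30279 and 30548 normalized counts under the SARAF-KO label and 36270, 41473 and 40522 under the SARAF-WT label. The first SARAF-WT-labelled library was the lowest of its group and still lay above all 3 of the other label, with a log2 change of -0.35 (SE 0.03, limma adjusted p = 3.9e-09). Col5a2 had 29955, 29923 and 30354 beside 41923, 43274 and 41720. The groups lay far apart, with a log2 change of -0.49 (SE 0.02, limma adjusted p = 4.8e-15). Col5a2 lies 24614 bases from Col3a1 on chromosome 1, and the 2 genes are transcribed toward each other. Col5a1 had 17348, 17110 and 16911 beside 20429, 19582 and 19296. The groups did not overlap, with a log2 change of -0.21 (SE 0.02, limma adjusted p = 1.3e-07).

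Col5a3 ran the other way from every other called fibrillar chain. It had 1054, 1034 and 1128 normalized counts in the SARAF-KO-labelled libraries and 396, 390 and 391 in the SARAF-WT-labelled ones. The SARAF-WT-labelled libraries lay within a few counts of each other and the SARAF-KO-labelled mean was 2.73-fold higher, a log2 change of 1.45 (SE 0.05, limma adjusted p = 1.3e-17). Per kb of transcript Col5a3 stayed far below Col5a1, at 175 normalized counts per kb beside 2037 under the SARAF-KO label and 64.1 beside 2352 under the SARAF-WT label.

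Col24a1, a fibrillar chain with a shortened helix known from developing bone and cornea, had the most negative log2 change of the class. It had 539, 523 and 549 normalized counts under the SARAF-KO label and 853, 1039 and 1043 under the SARAF-WT label, with no overlap and a log2 change of -0.86 (SE 0.06, limma adjusted p = 1.4e-11). Col11a1, a chain of cartilage fibrils that fibroblasts also make, had 2118, 2191 and 2015 beside 2530, 2508 and 2529. Its groups were apart too, with a log2 change of -0.26 (SE 0.03, limma adjusted p = 4.2e-07). Its partner Col11a2 was scarce, with 83.3, 83.1 and 81.8 normalized counts beside 75.0, 88.1 and 99.8. The Col11a2 groups overlapped and its log2 change of -0.07 (95% interval -0.35 to 0.21) did not pass, nor did that of Col27a1, the other short-helix chain, at -0.13 (95% interval -0.31 to 0.04). Col2a1, the main cartilage collagen, was at 9.22 ± 0.94 beside 5.31 ± 2.37 normalized counts (SD, n = 3) and was not tested.

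Basement membrane chains went the other way. All 4 tested type IV chains were higher in the SARAF-KO-labelled libraries, beside 28.2% of all genes tested, with a median log2 change of 0.56. Col4a1 and Col4a2 form the type IV network found in almost every basement membrane, while Col4a5 and Col4a6 join in the network of smooth muscle and some epithelia. Col4a3 and Col4a4, the other chains of the kidney's filter membrane, were not expressed above the minimum, at 9.45 ± 2.86 beside 8.29 ± 2.21 and 8.47 ± 3.53 beside 6.73 ± 1.00 normalized counts (SD, n = 3).

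Col4a1 had 7502, 7466 and 7609 normalized counts under the SARAF-KO label and 5129, 5196 and 5027 under the SARAF-WT label. Col4a2 had 5663, 5531 and 5685 beside 3831, 3830 and 3687. In both, all 3 SARAF-KO-labelled libraries stood above the others by more than the spread within either group. The log2 changes were 0.56 and 0.57 (SE 0.03 each, limma adjusted p = 2.0e-15 and 4.8e-15). Col4a5 had 2641, 2709 and 2598 beside 2359, 2536 and 2449, a small difference without overlap (log2 change 0.11, SE 0.03, limma adjusted p = 0.0046). Col4a6 had 171, 170 and 174 beside 56.7, 45.6 and 57.8. This scarce chain was 3.21-fold higher in the mean, with a log2 change of 1.67 (SE 0.13, limma adjusted p = 3.9e-11).

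The type IV genes lie in head-to-head pairs, each gene transcribed away from its partner. Col4a1 (chromosome 8, 11198423 to 11312826, minus strand) and Col4a2 (11312805 to 11449287, plus strand) overlap by 22 bases at their starts. Col4a6 and Col4a5 on chromosome X start 1308 bases apart, and Col4a4 and Col4a3 on chromosome 1 start 71 bases apart. The start regions of the pair with nearly equal changes and of the pair with unequal changes are shown as RefSeq gives them on GRCm38.p6, from 250 bases before to 50 after each start, 5′ to 3′ on the strand of the gene. The windows are chr8:11312777-11313076 (minus) for Col4a1, chr8:11312555-11312854 (plus) for Col4a2, chrX:141475169-141475468 (plus) for Col4a5 and chrX:141474027-141474326 (minus) for Col4a6. Capitals mark a GC box (GGGCGG) or a CCAAT box (CCAAT), each on either strand, which are general promoter elements, and no 2 marked matches overlap.
Col4a1: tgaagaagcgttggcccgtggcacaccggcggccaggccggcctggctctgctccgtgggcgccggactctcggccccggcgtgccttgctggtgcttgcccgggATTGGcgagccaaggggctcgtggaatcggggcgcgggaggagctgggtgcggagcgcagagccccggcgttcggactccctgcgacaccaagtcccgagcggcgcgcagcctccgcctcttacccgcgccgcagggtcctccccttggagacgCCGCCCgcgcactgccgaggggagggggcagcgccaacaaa
Col4a2: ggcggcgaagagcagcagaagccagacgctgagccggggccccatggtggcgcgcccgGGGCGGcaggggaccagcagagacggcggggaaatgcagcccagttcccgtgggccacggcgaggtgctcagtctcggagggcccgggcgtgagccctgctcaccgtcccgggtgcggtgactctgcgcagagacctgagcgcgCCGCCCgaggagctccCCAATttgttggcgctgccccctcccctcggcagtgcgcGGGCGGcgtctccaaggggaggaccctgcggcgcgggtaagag
Col4a5: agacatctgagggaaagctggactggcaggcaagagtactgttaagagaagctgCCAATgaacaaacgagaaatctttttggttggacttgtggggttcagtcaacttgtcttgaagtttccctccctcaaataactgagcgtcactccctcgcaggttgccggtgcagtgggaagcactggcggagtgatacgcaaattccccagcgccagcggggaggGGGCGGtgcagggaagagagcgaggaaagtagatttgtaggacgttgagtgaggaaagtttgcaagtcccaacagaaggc
Col4a6: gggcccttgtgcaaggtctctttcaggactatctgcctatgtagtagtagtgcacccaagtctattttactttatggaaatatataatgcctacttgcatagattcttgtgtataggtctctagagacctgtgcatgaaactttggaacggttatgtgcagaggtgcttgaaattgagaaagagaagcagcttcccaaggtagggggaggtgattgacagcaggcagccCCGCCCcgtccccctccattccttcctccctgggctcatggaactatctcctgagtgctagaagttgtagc
The Col4a1 and Col4a2 windows share 78 bases, whereas 842 bases lie between those of Col4a5 and Col4a6.

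The GC box was found 1 time in the Col4a1, Col4a5 and Col4a6 windows and 3 times in that of Col4a2, and the CCAAT box 1 time in each but Col4a6. The GC box of Col4a1 lies in the stretch that its window shares with Col4a2. It is the same site as 1 of the 3 of Col4a2, read on the other strand. None of the 4 held the letters TATAAA. Of the 42 chains 34 had a promoter in the table, of which 22 held a GC box, 12 a CCAAT box and 5 TATAAA. Over all 32851 promoters of the same length, 35.7% held a GC box, 37.4% a CCAAT box and 13.6% TATAAA. These matches describe the letters only.

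**Figure D3:**
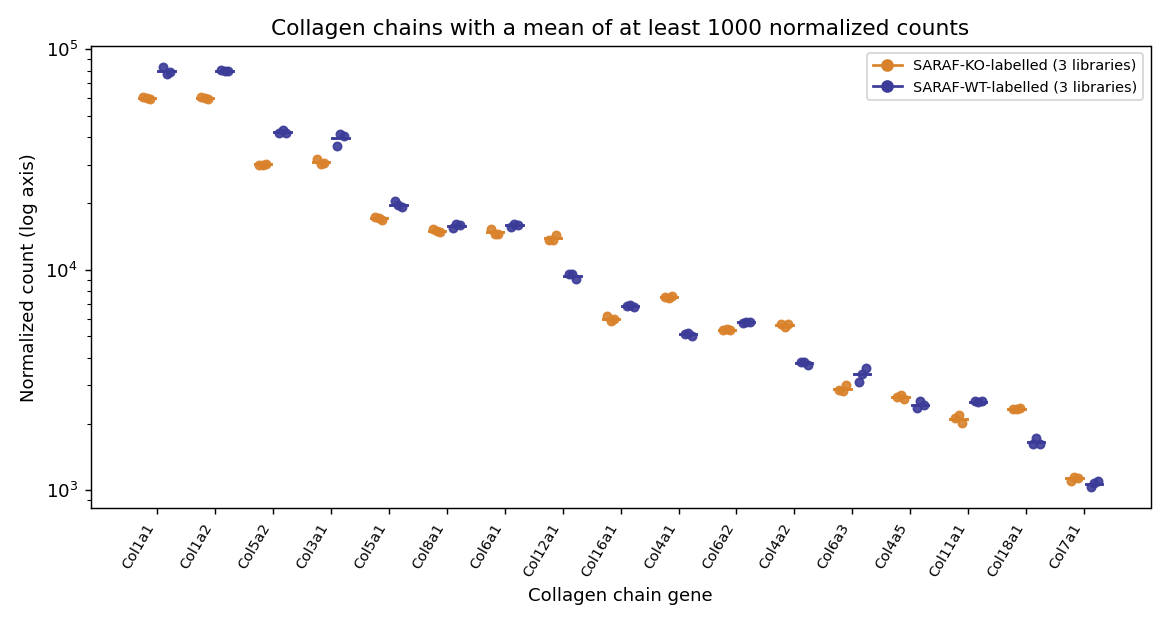
Normalized count in each library (y axis, log scale) for the 17 collagen chains with a mean of at least 1000 (x axis), with 3 points and a mean line for each label. All fibrillar chains shown lie lower under the SARAF-KO label, and Col4a1, Col4a2, Col4a5, Col12a1, Col18a1 and Col7a1 lie higher, of which Col7a1 did not pass.

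FACIT chains split in direction, and so did the abundant pair, Col12a1 and Col16a1. Of the 7 tested, 1 was higher, 4 were lower and 2 did not pass. Among all genes tested 56.2% passed, 28.2% higher and 28.0% lower. Col12a1, a long chain on the surface of type I fibrils in dense tissue, was the higher one. Its relative Col14a1, which marks more mature fibrils, was lower, as were Col16a1, Col9a2 and Col20a1.

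Col12a1 had 13652, 13711 and 14424 normalized counts under the SARAF-KO label and 9612, 9585 and 9059 under the SARAF-WT label. The groups did not overlap, with a log2 change of 0.56 (SE 0.03, limma adjusted p = 8.3e-15). Col14a1 had 89.2, 90.8 and 70.0 beside 275, 248 and 272. It was 3.18-fold lower in the mean under the SARAF-KO label, with a log2 change of -1.66 (SE 0.11, limma adjusted p = 3.0e-12). Col16a1, which binds fibrils and fibrillin microfibrils, had 6197, 5845 and 5974 beside 6886, 6954 and 6791. Its difference was small and without overlap (log2 change -0.20, SE 0.03, limma adjusted p = 9.4e-07). Per kb of transcript Col12a1 had a mean of 1210 normalized counts and Col16a1 of 1153 under the SARAF-KO label. Under the SARAF-WT label the means were 818 and 1321, so the order of the means differed between the labels. In SARAF-KO replicate 1 the 2 chains were nearly equal and Col16a1 still led, at 1190 beside 1186 for Col12a1.

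The remaining FACIT chains were scarce. Col9a2, a type IX chain of cartilage, had 7.22 ± 3.29 beside 29.5 ± 1.96 normalized counts (SD, n = 3). Its log2 change of -1.99 (SE 0.33, limma adjusted p = 1.7e-05) rests on 4 to 11 reads in the SARAF-KO-labelled libraries. Col20a1 had 56.4 ± 3.66 beside 78.0 ± 8.38 (log2 change -0.46, limma adjusted p = 0.011), and this call was lost with DESeq2 on the recovered reads, at an adjusted p of 0.071. Col9a3, another type IX chain, had 86.5 ± 5.01 beside 75.6 ± 20.2 and did not pass. Its exons share 234 bases with the opposite-strand gene Tcfl5, and the library kit did not mark strand, so reads in that stretch cannot be assigned to either gene. Other chains had shared stretches too, called ones included. Col6a4 shared 127 bases with Gm36993 and 88 with Gm47575, and Col5a1 shared 99 with 2810430I11Rik and 113 with Gm13372. Col3a1 shared 141 bases with Gm47302 on its own strand. Col22a1, known from tissue junctions such as that of muscle and tendon, had 13.1 ± 1.07 beside 9.22 ± 1.13 and did not pass (95% interval of its log2 change -0.21 to 1.15). Col19a1 stayed under the minimum at 4.67 ± 3.74 beside 1.80 ± 0.43.

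Among the other classes the common type VI chains were slightly lower and the scarce type VI chains higher. Type VI collagen forms beaded filaments around cells, from Col6a1, Col6a2 and one more chain, which is Col6a3 in most tissues and can be Col6a4, Col6a5 or Col6a6. All 6 genes passed, 3 in each direction, beside 56.2% of all genes tested, 28.2% higher and 28.0% lower. Col6a4, Col6a5 and Col6a6 lie next to each other on the minus strand of chromosome 9, with 28810 and 27917 bases between them.

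Col6a1 had 15261, 14550 and 14514 normalized counts under the SARAF-KO label and 15713, 16164 and 16040 under the SARAF-WT label. Col6a2 had 5326, 5364 and 5320 beside 5727, 5790 and 5830, and Col6a3 had 2844, 2810 and 3013 beside 3111, 3381 and 3602. In none of the 3 did the groups overlap, and all 3 changes were small: -0.11, -0.12 and -0.22 on the log2 scale, with limma adjusted p values of 0.00047, 0.00038 and 5.0e-05. Col6a6 had 94.1 ± 10.4 beside 57.3 ± 7.97 normalized counts (SD, n = 3), and its log2 change was 0.71 (SE 0.15, limma adjusted p = 0.00025). Col6a4 had 34.9 ± 9.38 beside 8.22 ± 5.47 and Col6a5 had 23.6 ± 4.28 beside 9.62 ± 4.14, with log2 changes of 2.09 (SE 0.35) and 1.28 (SE 0.33). Together these 3 chains made up a minor part of type VI RNA: per kb Col6a3 stood at 286 normalized counts in the SARAF-KO-labelled libraries, Col6a6 at 10.7, Col6a4 at 4.74 and Col6a5 at 2.54.

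The 2 multiplexins, chains with many interruptions that sit in basement membrane zones and release the endostatin fragment or its relative, went in opposite directions. Col18a1 had 2350, 2336 and 2364 normalized counts under the SARAF-KO label and 1629, 1732 and 1619 under the SARAF-WT label. All SARAF-KO-labelled libraries were higher, with a log2 change of 0.50 (SE 0.03, limma adjusted p = 5.4e-12). Col15a1, which bridges the basement membrane to fibrils around muscle and vessels, lay between 5.10 and 5.92 beside 31.4 and 38.1. Its log2 change of -2.48 (SE 0.29, limma adjusted p = 1.1e-07) was the most negative of the 36 tested chains, on 6 reads in each SARAF-KO-labelled library and 29 to 33 in each SARAF-WT-labelled one.

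Col8a1, a chain of hexagonal networks in vessel walls and the cornea, was abundant and differed little, with 15316, 15026 and 14809 normalized counts beside 15447, 16175 and 15974. Its log2 change of -0.08 (SE 0.02, limma adjusted p = 0.011) no longer passed without SARAF-KO replicate 3 (adjusted p = 0.070 in limma) or without SARAF-WT replicate 2 (adjusted p = 0.053 in limma). Col10a1, the related chain of hypertrophic cartilage, had 17.7 ± 2.60 beside 9.90 ± 1.30 normalized counts (SD, n = 3). Its limma adjusted p of 0.034 was lost in 6 of the 15 other settings that tested it, DESeq2 included (adjusted p = 0.17), so that call is the least firm of the 29. Without each of SARAF-KO replicates 1, 2 and 3 and SARAF-WT replicates 1 and 3 the limma adjusted p was 0.058, 0.062, 0.13, 0.069 and 0.062. Col8a2 was at 3.54 ± 1.36 beside 1.80 ± 1.08 and was not tested.

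Of the 4 transmembrane collagens, which span the cell membrane and shed their outer part, only Col23a1 passed, at 209 ± 19.8 beside 297 ± 37.6 normalized counts (SD, n = 3; log2 change -0.50, limma adjusted p = 6.3e-05). Col17a1, a hemidesmosome chain, was at 79.1 ± 5.75 beside 93.8 ± 8.10 and Col25a1, first known from brain plaques, at 35.2 ± 6.30 beside 31.4 ± 3.49, and neither passed. Col13a1 was listed at 0 in all SARAF-KO-labelled libraries and had at most 1 read in any library. Col28a1, known from nerve, was lower at 58.7 ± 5.49 beside 104 ± 3.77 (log2 change -0.82, limma adjusted p = 1.4e-05). Col7a1, the anchoring fibril chain of skin, had 1135 ± 24.0 beside 1073 ± 38.5. Its groups did not overlap, yet its log2 change of 0.08 did not pass (limma adjusted p = 0.10), and it was the only chain with a mean of at least 1000 that did not.

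**Figure D4:**
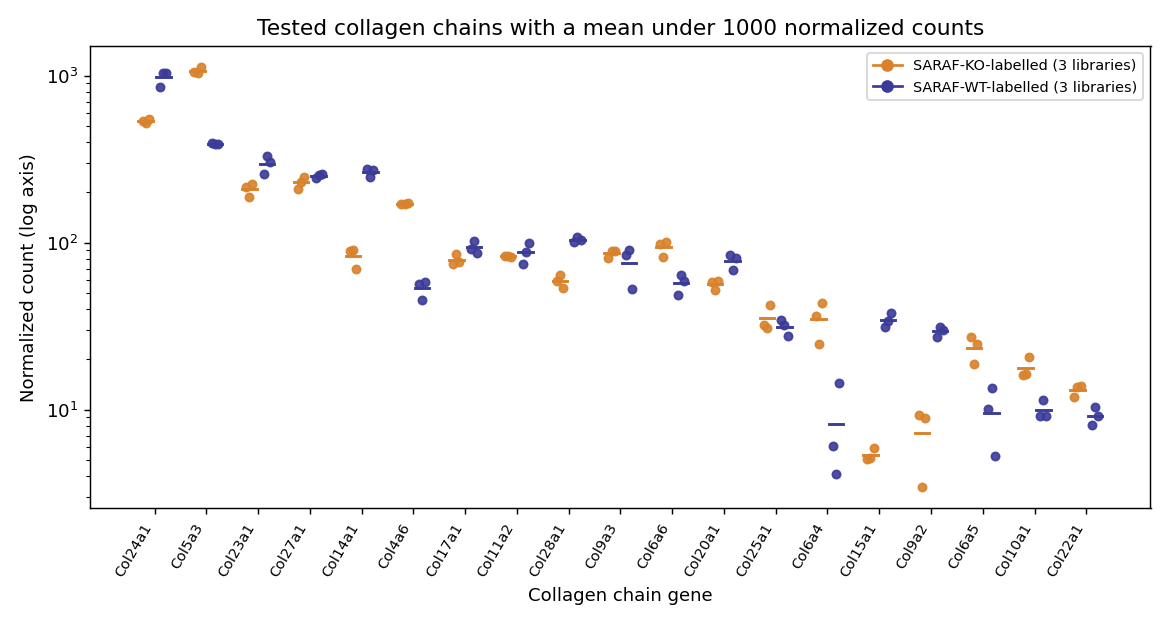
Normalized count in each library (y axis, log scale) for the 19 tested collagen chains with a mean under 1000 (x axis), with 3 points and a mean line for each label. Of these 13 passed, 6 higher and 7 lower under the SARAF-KO label, where 56.2% of all genes tested passed. Among the lower ones is Col15a1 at 5.10 to 5.92 beside 31.4 to 38.1.

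An absolute log2 change of at least 1 together with a limma adjusted p under 0.05 was seen in 7 chains (19.4% of those tested). Of all genes tested, 4.69% met both conditions. The 4 higher ones were Col5a3, Col4a6, Col6a4 and Col6a5, and the 3 lower ones were Col14a1, Col9a2 and Col15a1. All 7 had a mean under 1000 normalized counts; among the 17 more abundant chains the log2 changes lay between -0.49 and 0.57.

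Fibrillar chains held most of the collagen reads, and the collagen share as a whole was lower under the SARAF-KO label. Collagen chains took 0.879, 0.862 and 0.865% of the recovered reads in the SARAF-KO-labelled libraries and 1.03, 1.05 and 1.04% in the SARAF-WT-labelled ones, 0.869 ± 0.009% beside 1.04 ± 0.007% (SD, n = 3). The groups did not overlap, and the two-sided exact permutation test gave p = 0.1, the smallest that 3 libraries against 3 can give. Fibrillar chains took 0.627% beside 0.818%, basement membrane chains 0.0495% beside 0.0352% and FACIT chains 0.0624% beside 0.0516%, all 3 without overlap and each at that smallest exact p. The other chains took 0.130% beside 0.137% and overlapped (exact p = 0.2). Col1a1, Col1a2 and Col3a1 together took 0.468% beside 0.613%. Without them the collagen share was 0.401% beside 0.428%, still without overlap and at the same smallest exact permutation p of 0.1. The difference went from -0.173 to -0.027 percentage points, on a share that was itself smaller.

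Because a trimer needs its chains together, the ratio of partner chains was compared within each library, which does not depend on how libraries were scaled. Col3a1 over Col1a1 was included as chains of mixed fibrils, which do not share a trimer. Of 10 planned pairs 8 could be computed, with the 2 others missing a tested chain. In 6 of the 8 the groups overlapped and in 2 they did not. Without SARAF-WT replicate 1 the number without overlap was 5, a number that fewer libraries can only leave or raise. Col1a1 over Col1a2 was 0.008 ± 0.001 on the log2 scale under the SARAF-KO label and -0.005 ± 0.053 under the SARAF-WT label (SD, n = 3), a difference of 0.01 (SE 0.03). Col4a1 over Col4a2 was 0.42 ± 0.01 beside 0.44 ± 0.01, a difference of -0.02 (SE 0.01), and Col6a1 over Col6a2 differed by 0.003 (SE 0.03).

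The pairs without overlap were Col5a1 over Col5a2 and Col4a5 over Col4a6. Col5a1 over Col5a2 was -0.79, -0.81 and -0.84 in the SARAF-KO-labelled libraries and -1.04, -1.14 and -1.11 in the SARAF-WT-labelled ones on the log2 scale. The difference was 0.29 (SE 0.04) without overlap. Col4a5 over Col4a6 was 3.95, 3.99 and 3.90 beside 5.38, 5.80 and 5.41, a linear ratio of 15.4 beside 46.1. Both had an exact permutation p of 0.1, the smallest possible, and 0.4 after adjustment over the 8 ratios, so neither passes a threshold of 0.05 and none could. Col3a1 over Col1a1 differed by 0.05 (SE 0.09), Col6a3 over Col6a2 by -0.10 (SE 0.06) and Col11a1 over Col11a2 by -0.19 (SE 0.12), all with overlap.

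**Figure D5:**
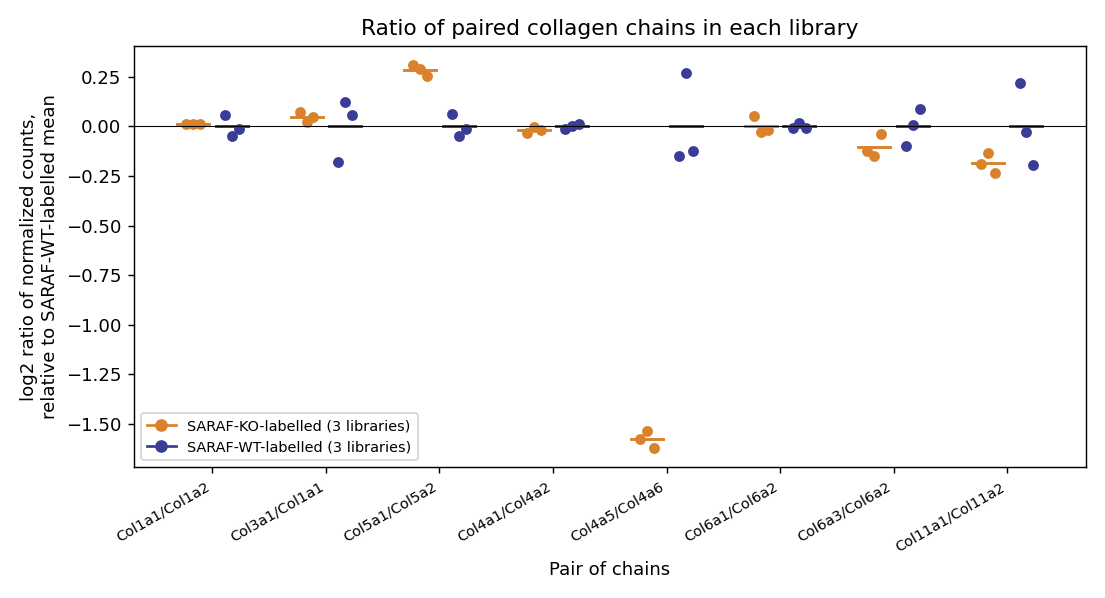
log2 ratio of the normalized counts of paired collagen chains in each library, shown relative to the mean of the SARAF-WT-labelled libraries (y axis), for 8 pairs (x axis), with 3 points and a mean line for each label. With all 6 libraries, Col5a1/Col5a2 (difference 0.29) and Col4a5/Col4a6 (difference -1.58) do not overlap and the other 6 pairs do. Without SARAF-WT replicate 1, 5 pairs do not overlap, a number that fewer libraries can only leave or raise.

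Some pairs of relatives outside the planned ones moved apart more. They were picked after their values were seen and are given without a test. Col12a1 over Col14a1 stood at a linear ratio of 168 under the SARAF-KO label and 35.6 under the SARAF-WT label. Col18a1 over Col15a1 stood at 438 beside 48.2, and Col5a3 over Col5a1 at 0.0626 beside 0.0199.

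Genes that make, bind and degrade collagen were counted from textbook lists. Of 33 tested genes for chain modification, folding, export, trimming and cross-linking, 20 were lower and 9 higher in the SARAF-KO-labelled libraries (median log2 change -0.16), beside the 28.0% and 28.2% of all genes tested. Lower were Lox, the enzyme that starts cross-links between fibrillar chains (11005 ± 220 beside 30899 ± 257 normalized counts, SD, n = 3; log2 change -1.49), and Loxl2, its relative with activity on type IV collagen (log2 change -0.66). Adamts2, the protease that trims the N-terminal propeptide of fibrillar procollagens, had a log2 change of -1.28, and Cthrc1, a secreted protein of matrix-producing fibroblasts, of -2.15. P3h2, a prolyl 3-hydroxylase that acts on type IV collagen, was higher at 157 ± 12 beside 56.9 ± 4.81 (log2 change 1.45). Serpinh1, the collagen chaperone of the endoplasmic reticulum, was lower by a small amount (log2 change -0.12), and the log2 change of P4ha1, a prolyl 4-hydroxylase subunit, was -0.02 and did not pass.

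Collagen receptors, partners of fibrils, and degrading enzymes with their inhibitors were counted in the same way. Their counts stand against 28.2% of all genes tested that were higher and 28.0% that were lower. The lists were not tested as sets. Of 9 tested receptor and uptake genes, 6 were lower and 2 higher (median -0.33 on the log2 scale), with the collagen-binding integrin chains Itga11 and Itga1 at log2 changes of -1.21 and -1.24, the uptake receptor Mrc2 at -0.38 and the fibrillar collagen receptor Ddr2 at -0.33. Of 14 tested fibril and network partners 9 were lower and 2 higher (median -0.25), and the lowest p values belonged to Nid2 and Nid1, which link laminin to type IV collagen (-1.19 and -0.55), fibronectin (Fn1, -0.47) and Thbs1 (-0.35). Of 10 tested genes for degrading enzymes and their inhibitors, 7 were higher and 2 lower (median 0.33). The 2 lower genes were Mmp14, the most abundant protease of the list (log2 change -0.16), and the inhibitor Timp2 (-0.08). Mmp13, a collagenase of fibrillar collagens, was at 1153 ± 61.8 beside 385 ± 41.5 normalized counts (SD, n = 3; log2 change 1.58), and Ctsk, a collagen-degrading cathepsin, at 99.8 ± 1.57 beside 23.4 ± 6.15 (log2 change 2.08). Timp3 and Timp1, protease inhibitors of the same list, were higher too, at log2 changes of 0.37 and 0.27.

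Markers of cell types that trunk cultures can hold were read beside the chains, and their counts stand against 56.2% of all genes tested that passed, 28.2% higher and 28.0% lower. The 10 fibroblast markers were all expressed, with 4 higher and 5 lower. Their summed normalized counts were 142779 to 146598 beside 142033 to 147042. These near-equal sums hide changes of single markers in both directions. The log2 changes were 0.95 for S100a4 and 0.55 for Twist2, and -1.27 for Thy1 and -0.44 for Pdgfrb. Of 9 tested smooth muscle and myofibroblast markers 7 were lower and none higher (sums 6803 to 7567 beside 16214 to 20256), led by Mylk, Cnn1, Tagln and Acta2, while the defining gene Myocd was near 0. Mesothelial markers were higher in 3 of 3 (sums 4864 to 5294 beside 1648 to 1721), almost all of it Msln, with Upk3b and Upk1b near 0. Neural crest and Schwann markers were higher in 3 of 6 and lower in 1 (4070 to 4330 beside 949 to 970). Most of the sum was Sox2 (log2 change 2.30), with Sox10 near 0. Tfap2b, at 565 beside 14.2 normalized counts (log2 change 5.23), and Pax3, at 475 beside 108 (2.12), were higher too, and S100b was lower (-1.24). Whether these shifts have a part in the collagen differences was not tested.

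Other marker lists held few tested genes, and their counts are to be read against the same shares of all genes. Tendon markers were higher in 3 of 4 (sums 714 to 778 beside 578 to 595), led by Mkx, Scx and Thbs4. Chondrocyte markers were lower in 2 of 5, Sox9 and Acan (sums 726 to 823 beside 1020 to 1071), and Matn1 and Comp were near 0. Osteoblast markers were split with 1 higher and 1 lower of 4 (1827 to 1885 beside 1737 to 1928). Endothelial markers were lower in 2 of 3 and higher in 1 (1514 to 1613 beside 2416 to 2458), mostly Kdr, with Pecam1 at 3.83 beside 5.67. Macrophage markers were higher in 2 of 3 with Ptprc near 0 (496 to 525 beside 431 to 461), the 1 tested epithelial marker, Krt18, was lower (list sums 32.5 to 43.7 beside 82 to 108), and no skeletal muscle marker reached the minimum (11.0 to 12.8 beside 7.09 to 10.5).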

How the data were processed

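The authors mapped RNA-seq reads (TruSeq v2, a kit that does not mark strand) to GRCm38 with TopHat2 2.0.10, made gene counts with HTSeq from Ensembl release 82, and used DESeq2 (version not given in the sources used here) for normalization and testing. For every gene and library the deposited table has 1 normalized count, a signal value that is the read count divided by the library's size factor. The deposited columns of the authors' own comparison (a mean signal, a log2 fold change and its error, a Wald score, a p-value and an adjusted p-value) were not used. In every library 100% of the values came out as whole numbers of reads (tolerance 1e-06), which gave the recovered reads. All columns of libraries were matched, and 0 were left over.

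The log2 of the normalized count plus 1 was tested with limma 3.58.1 (trended variance, R 4.3.3), two-sided, over 13986 genes whose mean reached 10, and p-values were adjusted by Benjamini-Hochberg (threshold 0.05). Shares of reads and chain ratios were compared with exact permutation tests over libraries. Alternatives were edgeR 4.0.16, DESeq2 1.42.0 and limma-voom on recovered reads, other filters, pseudocounts of 0.5 and 5, other scalings, a replicate block and leaving out each library in turn. The scripts were tested on simulated data. Each pair of libraries was also compared by a chi-square statistic divided by its degrees of freedom, using genes with 20 reads or more. This value was 1.53 to 3.99 for pairs within a label and 39.3 to 47.2 for pairs across the labels. No pair therefore agreed within sampling noise, but libraries of the same label came much closer to it. Whether libraries of the same label came from separate cultures was not tested.

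Every collagen chain was named. Values in each library were given for called chains with a mean of at least 1000, for the 2 most positive and the 2 most negative log2 changes among called chains of a mean of at least 50, for chains of a ratio and for Saraf, and of each related or marker list up to 4 genes with the smallest p were named. Col9a2, Col15a1, P3h2, Serpinh1, P4ha1, Mmp14, Timp2 and the marker genes given as near 0 were singled out after their values were seen, except as members of the class. The collagen genes, classes and lists were chosen with earlier results of these data known. Classes follow textbook assignment. Gene positions, lengths and exons came from GENCODE M21 on GRCm38 and promoters, matched by symbol, from RefSeq on GRCm38.p6.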

Additional observations from a re-analysis of the deposited data

How the results depend on the processing

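Of the 29 chains past the threshold, 26 kept the call in every one of the 16 other settings that tested them, and 3 (Col8a1, Col10a1 and Col20a1) lost it in at least 1, as given above. None of the 7 other chains passed in any. The count of higher chains was 8 to 11 over all settings and that of lower chains 16 to 18, except with an added minimum of 0.5 on the absolute log2 change, which left 10 higher and 6 lower because most lower chains changed by less. Rescaling to equal totals of the other genes or by TMM turned no chain. Without SARAF-WT replicate 3, the direction turned for 2 chains that did not pass: leaving out 1 library at a time, the log2 change ranged from -0.18 to 0.025 for Col11a2 and from -0.011 to 0.37 for Col9a3. The collagen share of reads differed by -0.027 percentage points without Col1a1, Col1a2 and Col3a1. The number of chain ratios without overlap was 2 to 5 with 1 library left out, 5 without SARAF-WT replicate 1. Leaving out a library cannot make separate groups overlap, so this number could only stay or rise. With a replicate block 5 of the 8 ratios moved one way in all 3 pairs, where the smallest exact sign-flip p is 0.25; in limma the replicate block left 11 higher and 18 lower chains. Over all tested genes, same-numbered libraries did not deviate together (correlations -0.001 to 0.002). A shared source that moves only some genes would not show in such a correlation, and no label says what the numbers stand for. Depth limits the scarce chains, where 10 reads or fewer stood behind Col9a2, Col15a1, Col6a4, Col6a5, Col10a1 and Col22a1 in at least 1 library.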

Other observations

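Genes outside the collagen chains that carry a collagen domain were looked at after the chains, as a set picked with values in view and given without a test of the set. They came from a list written by hand, which is not complete, and 21 genes of it were in the table. Of these, 11 were tested, and 7 were lower and 1 higher in the SARAF-KO-labelled libraries (median log2 change -0.37), where 28.0% of all genes tested were lower and 28.2% higher. Ccbe1, a secreted factor needed for lymphatic vessel growth, was at 1365 ± 44.0 beside 4596 ± 274 normalized counts (SD, n = 3; log2 change -1.75, limma adjusted p = 8.2e-22). Scara3 and Colec12, membrane proteins of the scavenger receptor group, had log2 changes of -0.80 and -0.48, and Emilin1, an elastic fibre protein, of -0.34. Colec10, a soluble collectin, was scarce, at 7.46 ± 0.58 beside 37.6 ± 6.62, and the 1 higher gene was Scara5, a ferritin receptor, at 88.3 ± 7.51 beside 31.1 ± 14. The secreted C1q relatives C1qtnf1 and C1qtnf6 had log2 changes of -0.28 and -0.25.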
